A study of Homo sapiens with 52 samples.

Results

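The genes followed here are 10 members of the TGF-beta pathway: the ligands TGFB1, TGFB2 and TGFB3, the activin A subunit INHBA, the receptors TGFBR1 and TGFBR2, the signal transducer SMAD3, the feedback genes SMAD7 and SKIL, and the secreted matrix protein TGFBI. They were chosen by symbol, and all 10 were found among the 59408 genes of the tables and among the 15606 genes tested. The cells were WI-38, a line of human embryonic lung fibroblasts that divides a limited number of times before it enters replicative senescence. Their mRNA was sequenced after 3 treatments of 24 h that bring on senescence. PMD-Sen cells received 0.009% SDS, a detergent that damages the plasma membrane. Ca2+-Sen cells received 75 mM KCl, used in the study to let calcium into the cell, and DDR-Sen cells received 250 nM DXR, the DNA-damaging drug doxorubicin. Day 0 is the end of the treatment, and 7 later collections followed, daily from day 1 to day 4 and then on days 6, 8 and 16. Late-passage cells in replicative senescence (RS), labelled with a population doubling level of 52, and untreated cells, labelled 32 to 46, completed the 26 groups, with 2 libraries each. All groups come from 1 cell line, and the labels name neither a carrier control nor an untreated culture of a later day. Time in culture and treatment therefore cannot be told apart, and all comparisons with untreated cells share the same 2 control libraries.

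TGF-beta ligands are secreted as latent complexes that are held in the matrix until they are activated. Active ligand binds TGFBR2, which recruits and phosphorylates TGFBR1; TGFBR1 then phosphorylates SMAD2 and SMAD3, and these join SMAD4 and enter the nucleus. SMAD7, which blocks and degrades the receptor, and SKIL, which represses SMAD target genes, are themselves induced by the pathway and close a negative feedback loop. Activin A, a dimer of the INHBA product, signals through its own receptors to the same SMAD proteins. In fibroblasts the pathway is known for driving matrix production, and its ligands belong to the secreted factors of senescent cells.

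The libraries held 15.3 to 55.5 M counted reads (M for 1e+06), and the 2 untreated libraries were the shallowest at 19.0 and 15.3 M. Levels are given as normalised reads, which are reads divided by the size factor of the library, and library 1 is the deeper one of each pair. All 9 fibroblast markers exceeded 100 normalised reads in at least 1 library, and their summed level ran from 344191 to 1065720. The 5 epithelial markers summed to 29.9 at most and the 5 leukocyte markers to 48.1 at most. The endothelial sum of 1287 to 7416 came almost wholly from TEK, the remaining endothelial markers reaching 260 in the highest library, and the smooth muscle sum of 1363 to 8458 came almost wholly from CNN1, the remaining smooth muscle markers reaching 81.5. The spread between the 2 libraries of a group was widest in RS, with a standard deviation of 0.34 on the log2 scale over genes with a mean of at least 100. The study calls the samples of a group independent without saying whether they were separate cultures, so that the p-values measure only the spread between these samples. In bulk RNA, fewer cells that express a gene and less RNA per cell cannot be told apart.

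The genes lie apart in the genome (GRCh38, GENCODE 29), with TGFB2 at chr1:218346235-218444619 on the plus strand, TGFBR2 at chr3:30606502-30694142 plus, SKIL at chr3:170357678-170396835 plus, INHBA at chr7:41667168-41705834 minus and SMAD3 at chr15:67063763-67195195 plus. Untreated cells expressed the 10 genes at very different levels. Per kilobase of exon, TGFBI stood at 5457 normalised reads, TGFBR2 at 2515, TGFB1 at 1499 and SMAD3 at 1203. INHBA followed at 338, TGFBR1 at 223, TGFB2 at 194, SKIL at 162 and SMAD7 at 146, and TGFB3 was lowest at 11.4. The 2 untreated libraries agreed within 1.13-fold for TGFB1, TGFB2, TGFBR1, TGFBR2, SMAD3 and TGFBI. They differed 2.14-fold for SMAD7, 1.92-fold for INHBA, 1.33-fold for TGFB3 and 1.23-fold for SKIL, so that the untreated level of these 4 genes was the least certain. The fit shares its spread over all groups, and TGFB2, which is not among these 4, had an SE of 0.31 there.

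**Figure D1:**
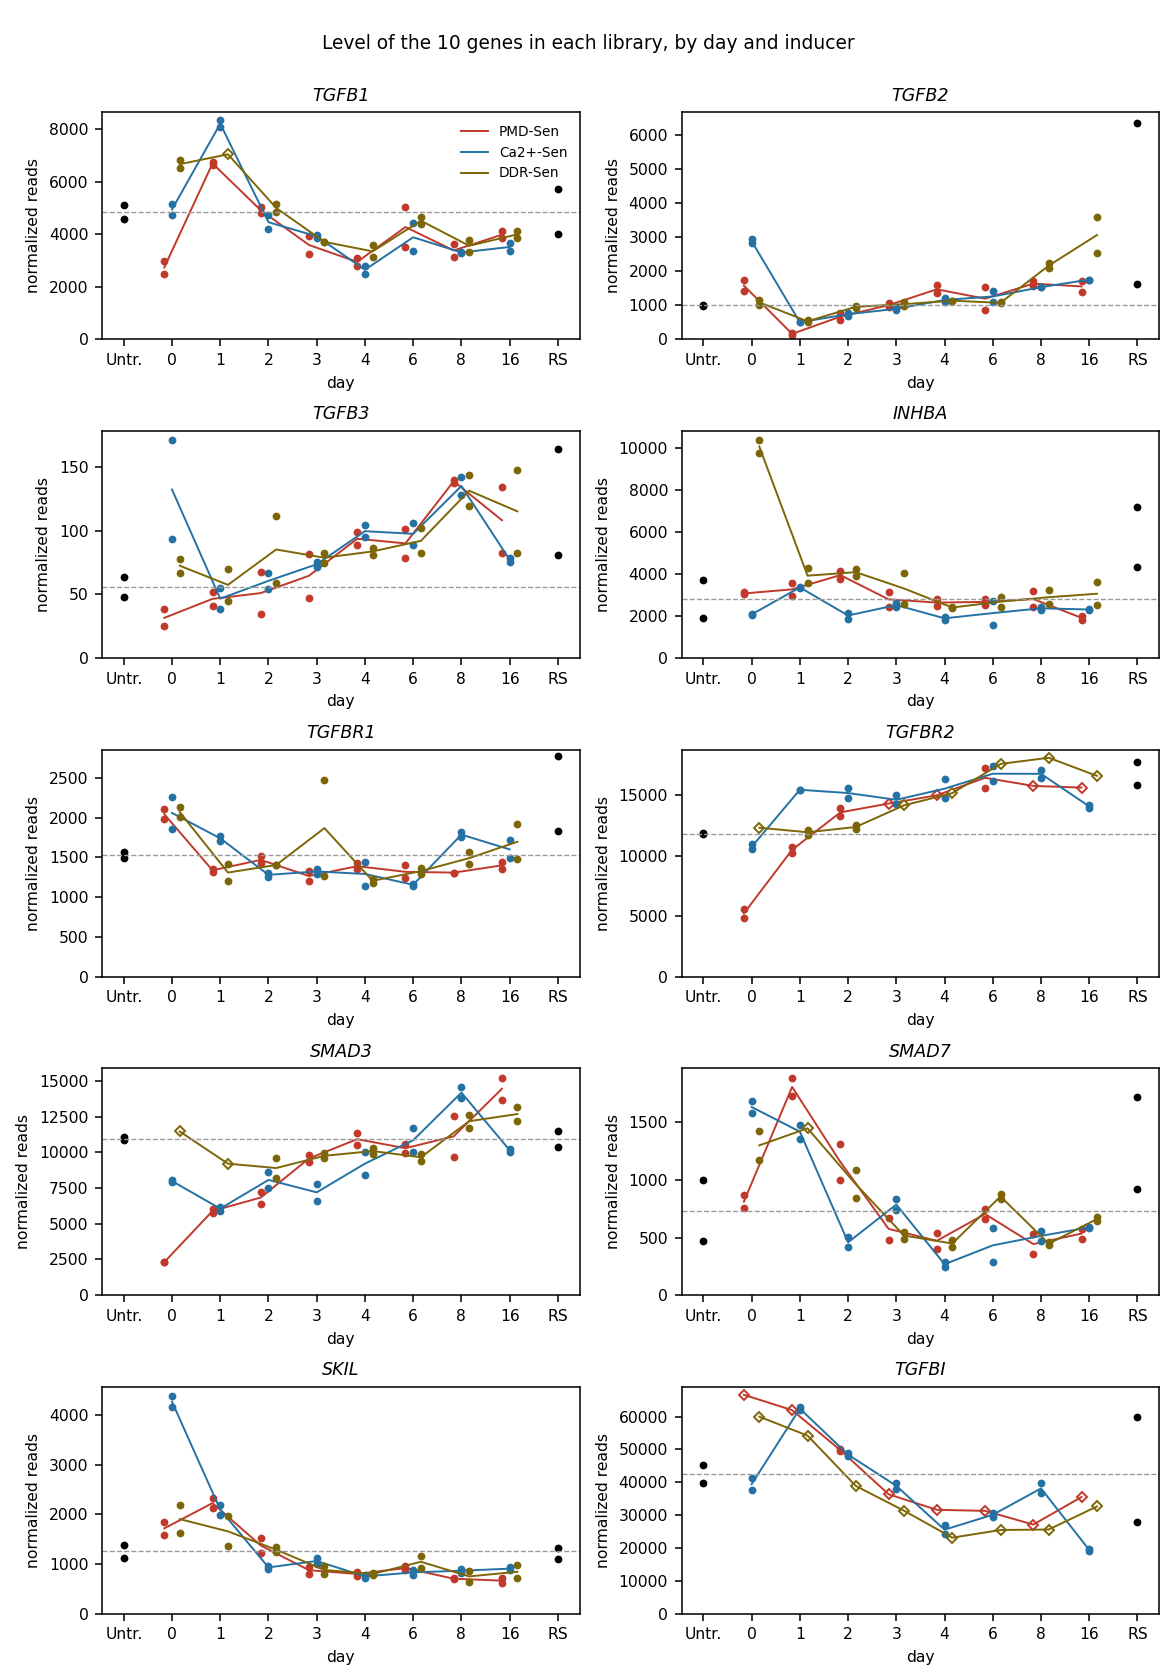
Normalised reads (linear axis) of each gene in RS and on each day after the 3 treatments; filled dots are single libraries, open diamonds are group means of pairs that could not be separated, and the dashed line is the untreated mean. TGFB2 had the widest range, from a mean of 158 in PMD-Sen on day 1 to 3993 in RS, and TGFBR2 stayed above the dashed line in all groups from day 3 on.

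Members were called where the adjusted p of limma's moderated test was under 0.05. On day 0, 7 of the 10 genes were called in PMD-Sen, 6 in Ca2+-Sen and 5 in DDR-Sen, while 55.6%, 59.2% and 40.3% of all tested genes were. On day 1 the counts were 5, 6 and 3 beside 30.9%, 16.6% and 30% of all genes, and on day 2 they were 1, 2 and 1 beside 20.7%, 5.24% and 19.6%. From day 3 on, PMD-Sen had 3, 3, 2, 5 and 4 called genes on days 3, 4, 6, 8 and 16, and the background was 21.3%, 24.2%, 30.9%, 26.3% and 43.8%. Ca2+-Sen had 2, 5, 3, 5 and 3 on those days beside 15.5%, 20.1%, 26.9%, 43.1% and 16.3%, and DDR-Sen had 3, 4, 2, 6 and 4 beside 21.5%, 24.7%, 36.4%, 37.2% and 46.9%. In RS, 6 of the 10 were called beside 47.3% of all genes. Most of these shares lay near the background, so that the content of the comparison is in which genes moved, in which direction and when.

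The balance of directions is given beside that of all tested genes. On day 0, 13 of the 30 gene and treatment pairs were called higher than untreated and 5 lower, while over all genes 24.1% of the pairs were higher and 27.6% lower. On day 1 there were 9 higher and 5 lower, beside 13.1% and 12.8%, and on day 2 there were 1 higher and 3 lower, beside 8.56% and 6.6%. Over days 3 to 16, 24 of 150 pairs were higher and 30 lower, beside 14.5% and 14.6%, and 15 of the 24 higher ones were TGFBR2. Where all 15 groups of days 3 to 16 are said below to lie on 1 side of untreated cells, the differences share the same 2 untreated libraries. Such groups are therefore not independent observations. The share of all tested genes with all 15 on 1 side was not computed. Scaling by library totals moved the share of all calls that were higher from 44.2% to 64% in Ca2+-Sen on day 1, from 51.7% to 65.7% there on day 2 and from 62.6% to 51.7% in PMD-Sen on day 2.

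**Figure D2:**
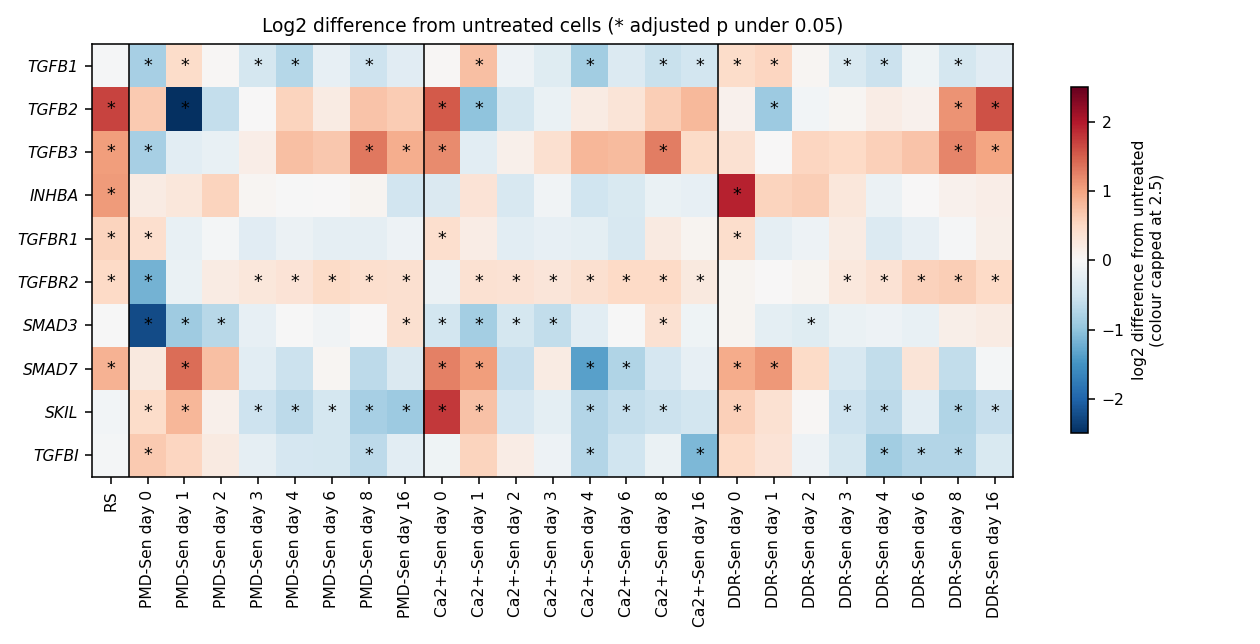
Log2 difference of each of the 10 genes from untreated cells in RS and on each day of the 3 treatments, with red above and blue below untreated, colour capped at 2.5 and a star where limma's adjusted p was under 0.05. SKIL and SMAD7 were red on days 0 and 1, SKIL was blue from day 3 on, and TGFBR2 was red from day 3 on in all 3 treatments.

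TGFB2, a ligand whose binding to TGFBR2 depends on a coreceptor, moved most of all, with a 25.2-fold range of group means. It stood at 974 and 1022 normalised reads in the untreated libraries. At the end of the KCl treatment it was at 2936 and 2843, which was 1.53 ± 0.31 (SE) higher on the log2 scale (limma, adjusted p = 7.45e-05, n = 2). One day later all 3 treatments lay below untreated cells. PMD-Sen fell furthest, to 180 and 137 normalised reads on day 1, a log2 difference of -2.66 ± 0.31 (limma, adjusted p = 1.28e-07). Ca2+-Sen was at 494 and 505 and DDR-Sen at 553 and 504, with means 2-fold and 1.89-fold below the untreated mean (limma, adjusted p = 0.0232 and 0.0225). Both latter calls were weak, since leaving out any single library of the 4 compared ended them, with limma's adjusted p at up to 0.108 and 0.117. By day 8 DDR-Sen was at 2243 and 2089 normalised reads, and by day 16 it was at 2540 and 3593, 3.03-fold above the untreated mean (limma, adjusted p = 7.06e-05). On day 16 PMD-Sen stood at 1708 and 1400 and Ca2+-Sen at 1756 and 1753; both lay above both untreated libraries, and neither passed the test (limma, adjusted p = 0.096 and 0.0665). In RS the 2 libraries held 1624 and 6361 normalised reads, a 3.92-fold gap, and the log2 difference of 1.69 had a limma adjusted p of 3.27e-05. Without RS library 2 the difference was 0.70, and the call held.

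TGFB1, the most abundant of the 3 TGF-beta ligands here, had a course that was small in size and ran only in part against that of TGFB2. Over the 26 groups the Spearman correlation of TGFB1 with TGFB2 was -0.51. In DDR-Sen on day 0 both lay above untreated cells, and in RS the log2 differences were 1.69 for TGFB2 and -0.02 for TGFB1. The untreated libraries held 4597 and 5114 normalised reads. PMD-Sen on day 0 was at 2502 and 2972, below both untreated libraries (log2 -0.83 ± 0.14, limma adjusted p = 9.39e-06), whereas DDR-Sen on day 0 was at 6831 and 6510, above both (0.46, adjusted p = 0.00952 by limma). Day 1 was above untreated in all 3 treatments, with log2 differences of 0.47 to 0.76, and Ca2+-Sen was highest at 8075 and 8350. From day 3 to day 16 all 15 groups lay below untreated cells and 9 were called, the lowest being Ca2+-Sen on day 4 at 2792 and 2502 (log2 -0.87). RS was at 5708 and 4005, on either side of the untreated pair. Several of the small calls rested on 1 untreated library. The day 0 call in DDR-Sen and the day 1 calls in PMD-Sen and DDR-Sen were lost without untreated library 1 or, for DDR-Sen day 0 and PMD-Sen day 1, without 1 of their own libraries, where limma's adjusted p rose to 0.0938, 0.111 and 0.0561. The calls that held without each of the 4 libraries were those of PMD-Sen on days 0 and 4 and of Ca2+-Sen on days 1, 4 and 8.

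TGFB3, the least abundant ligand, had only 39 and 24 reads in the untreated libraries, or 63.7 and 48.0 normalised reads. It was at 93.6 and 170.8 in Ca2+-Sen on day 0 and at 24.8 and 38.2 in PMD-Sen, on opposite sides of the untreated pair (log2 1.18 and -0.83). From day 3 on its mean was above untreated in 15 of 15 groups, and 5 were called, namely every treatment on day 8 and, on day 16, DDR-Sen and PMD-Sen. All 15 differences rest on the same 39 and 24 untreated reads. The day 8 means were 139, 135 and 131 normalised reads. RS stood at 80.8 and 164 (log2 1.05). All of the calls against untreated cells were lost without untreated library 2. With weights for the precision of each count (voom), the calls held on day 8 and in Ca2+-Sen on day 0 with adjusted p-values from 0.0309 to 0.0499, and were lost for RS, both PMD-Sen days (0 and 16) and day 16 of DDR-Sen, with adjusted p-values from 0.0786 to 0.246.

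INHBA, whose product forms activin A, rose in DDR-Sen at the end of treatment. The 2 libraries held 9775 and 10370 normalised reads, against 1921 and 3696 in untreated cells (log2 1.92 ± 0.24, limma adjusted p = 1.23e-07). By day 1 it was at 3564 and 4276 in DDR-Sen, and no later day of any treatment was called. In RS the level was 4338 and 7200 (log2 1.07, limma adjusted p = 0.000488); without untreated library 1 the adjusted p was 0.0708. The remaining groups ran from a mean of 1886 to 4087 normalised reads, around the 2 untreated values, and none was called.

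The receptors differed from each other. TGFBR2, the type II receptor that binds the ligand, was the steadiest of the 10 genes in the untreated libraries, at 11840 and 11830 normalised reads. In PMD-Sen on day 0 it was at 4850 and 5603, well below both (log2 -1.18 ± 0.07, limma adjusted p = 7.7e-12). In Ca2+-Sen it was at 10520 and 10940 and in DDR-Sen the mean was 12320, and neither was called. Ca2+-Sen was the earliest to be called higher, at 15450 and 15460 on day 1 and 14780 and 15600 on day 2 (log2 0.39 and 0.36, limma adjusted p = 0.00102 and 0.00606); the day 1 call held without each library and that of day 2 was lost without Ca2+-Sen day 2 library 2 (adjusted p = 0.0743 by limma). From day 3 to day 16 TGFBR2 was called higher in all 3 treatments, in 15 of 15 groups, by 0.25 to 0.61 on the log2 scale, with group means from 14080 to 18110. Of these 15 calls, those of PMD-Sen on days 4 to 16, of Ca2+-Sen on days 4, 6 and 8 and of DDR-Sen on days 4 to 16 held without each of the libraries. Those of day 3 in all 3 treatments and of Ca2+-Sen on day 16 did not, and limma's adjusted p then reached 0.0585, 0.0733, 0.0633 and 0.127. RS was at 15830 and 17720 normalised reads, 0.50 higher on the log2 scale (limma, adjusted p = 7.38e-06), and was called without each library in turn. In 10 of the 26 groups the deposited digits gave only the mean of the pair for TGFBR2, and that mean entered the fit. Leaving out 1 library of such a pair lowered the weight of the mean and did not move it.

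TGFBR1, the type I receptor kinase, had the narrowest range of group means of the 10 genes, 1.99-fold. It was at 1487 and 1568 normalised reads in untreated cells and between 1859 and 2257 in all 6 libraries of day 0, with log2 differences of 0.42, 0.42 and 0.44 in PMD-Sen, Ca2+-Sen and DDR-Sen. The groups did not overlap, and limma's adjusted p-values of 0.0439, 0.0391 and 0.0474 passed narrowly. The PMD-Sen and DDR-Sen calls were lost whichever of the 4 libraries was left out, and the Ca2+-Sen call was lost without any of 3 of them, with adjusted p-values of up to 0.162, 0.189 and 0.282. RS was 0.56 higher at 1831 and 2771 normalised reads, a call that was lost without untreated library 1 or RS library 2 (limma, adjusted p up to 0.306). No group of days 1 to 16 was called.

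SMAD3, the transducer that carries the signal of these receptors to the nucleus, had the greatest drop of the 10 genes at day 0. Untreated cells held 11060 and 10860 normalised reads and PMD-Sen on day 0 held 2305 and 2322 (log2 -2.24 ± 0.10, limma adjusted p = 5.99e-17). In PMD-Sen it then returned over the next days, with means of 5894 on day 1, 6834 on day 2, 9571 on day 3 and 10920 on day 4. On day 16 it was at 13670 and 15230, above both untreated libraries (log2 0.40), though without PMD-Sen day 16 library 2 limma's adjusted p was 0.0528. In Ca2+-Sen the lowest point came 1 day later, at 6192 and 5923 normalised reads on day 1 (log2 -0.86, limma adjusted p = 2.39e-06), after 7942 and 8032 on day 0. SMAD3 was also called lower there on days 2 and 3, with means of 8068 and 7199 normalised reads. On day 8 it was called higher in Ca2+-Sen, at 13770 and 14590. Among the calls of days 2, 3 and 8, only that of day 3 held without each library. DDR-Sen passed only on day 2, at 9622 and 8179, and this call was lost without either untreated library or without DDR-Sen day 2 library 2, with an adjusted p of up to 0.362 by limma. RS, at 10380 and 11490, lay around the untreated pair.

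SMAD7 and SKIL, the 2 feedback genes, had means above untreated cells in every treatment on days 0 and 1, and 10 of these 12 differences were called. Their group means ran together over the 26 groups, with a Spearman correlation of 0.90, which is a description over groups that share the scaling and, for each day, the libraries. SKIL was at 1133 and 1392 normalised reads in untreated cells and at 4379 and 4162 in Ca2+-Sen on day 0, its highest level (log2 1.76 ± 0.17, limma adjusted p = 1.59e-10). In PMD-Sen it reached its highest level on day 1, at 2126 and 2334 (0.83, limma adjusted p = 0.000338), and in DDR-Sen on day 0, at 2199 and 1618. The smaller day 0 calls of PMD-Sen and DDR-Sen (0.45 and 0.59) were lost without untreated library 1 or 1 library of their own, with limma's adjusted p at up to 0.231 and 0.159.

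From day 3 on the SKIL level was below untreated in 15 of 15 groups, and 12 were called. The lowest was PMD-Sen on day 16, at 718 and 617 normalised reads, which was below both untreated libraries (log2 -0.91, limma adjusted p = 4.92e-05). The calls that held without each library were those of PMD-Sen on days 8 and 16 and of DDR-Sen on day 8; the other 9 were lost without untreated library 2, the one with the higher SKIL level. In RS, SKIL was at 1317 and 1102 normalised reads, within the untreated pair on average, with a log2 difference of -0.06.

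SMAD7 stood at 467 and 998 normalised reads in the untreated libraries, and this gap limits what can be read from it. On day 1 it was at 1727 and 1886 in PMD-Sen, and on day 0 at 1583 and 1684 in Ca2+-Sen, all above both untreated libraries (log2 1.40 and 1.26, limma adjusted p = 0.000302 and 0.000301), and these calls held without each library. The calls of DDR-Sen on days 0 and 1 and of Ca2+-Sen on day 1 (0.92, 1.08 and 1.05) were lost without untreated library 1, the one with the lower level (limma, adjusted p up to 0.374, 0.218 and 0.319). The lowest level was in Ca2+-Sen on day 4, at 246 and 292 normalised reads (log2 -1.35, limma adjusted p = 0.000995, and 0.0779 without untreated library 2). In RS the 2 libraries held 1718 and 918 and overlapped the untreated pair; the call (0.88) was lost without untreated library 1 or RS library 1 (limma, adjusted p up to 0.412).

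TGFBI, a secreted matrix protein named for its induction by TGF-beta, was the most abundant of the 10 genes, at 39940 and 45300 normalised reads in untreated cells. At day 0 the PMD-Sen mean was 66630 and the DDR-Sen mean 59980, of which only PMD-Sen passed (log2 0.65, limma adjusted p = 0.0148, and 0.0938 without untreated library 1). From day 3 to day 16 it lay below untreated in 15 of 15 groups, and 6 were called. The lowest was Ca2+-Sen on day 16, at 19230 and 19630 normalised reads (log2 -1.13 ± 0.21, limma adjusted p = 0.00169), and this was the only TGFBI call against untreated cells that held without each library. In 15 of the 26 groups the digits gave only the mean of the pair, which leaving out 1 of its libraries did not move. RS held 59980 and 27840 normalised reads, on either side of the untreated pair, and was not called (log2 -0.06); the result depended on which RS library was kept, since without RS library 2 the difference was 0.50 and without RS library 1 it was -0.61, with limma adjusted p-values of 0.000335 and 3.92e-05.

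Each day 0 response could also be compared between treatments, without the untreated libraries. PMD-Sen differed from DDR-Sen in 6 of the 10 genes, all lower in PMD-Sen, beside 56.6% of all tested genes. It differed from Ca2+-Sen in 9, of which 2 were higher and 7 lower, beside 63.9%. Ca2+-Sen differed from DDR-Sen in 7, 2 higher and 5 lower, beside 61%. SMAD3 separated all 3 treatments, with log2 differences of -2.31 for PMD-Sen against DDR-Sen and -1.79 against Ca2+-Sen (limma, adjusted p = 1.72e-17 and 3.3e-15). TGFBR2 was lower in PMD-Sen than in DDR-Sen and Ca2+-Sen, by log2 differences of -1.24 and -1.04. INHBA was lower in PMD-Sen and in Ca2+-Sen than in DDR-Sen, with log2 differences of -1.71 and -2.28 (limma, adjusted p = 3.69e-07 and 1.2e-09). SKIL was 1.18 higher and TGFB2 1.42 higher in Ca2+-Sen than in DDR-Sen (limma, adjusted p = 3.72e-07 and 0.000178). TGFBR1 did not separate the treatments at day 0, and the 95% confidence intervals of its 3 differences stayed between -0.38 and 0.35 on the log2 scale.

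**Figure D3:**
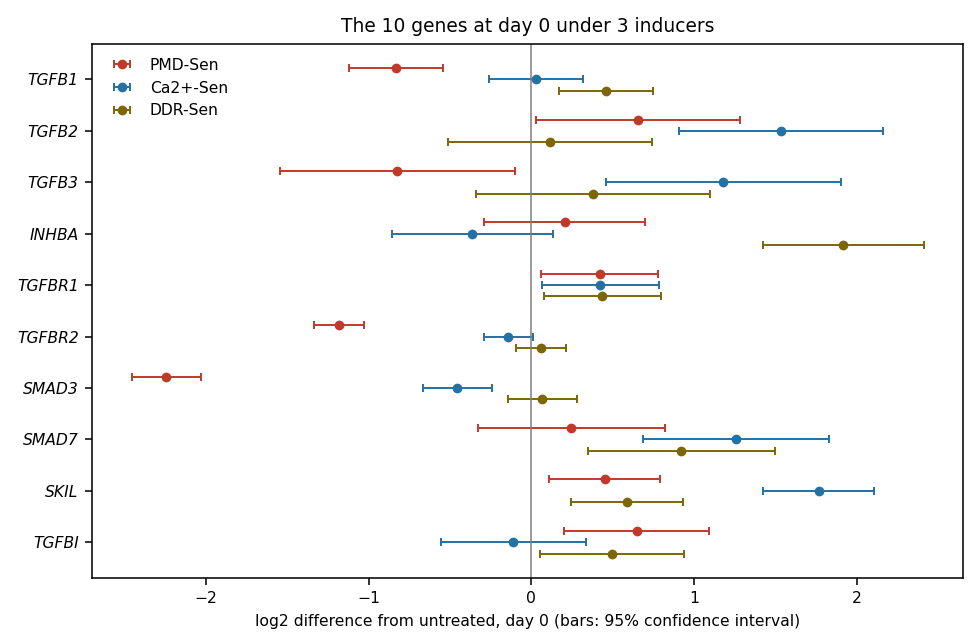
Log2 difference of the 10 genes from untreated cells at day 0 in PMD-Sen, Ca2+-Sen and DDR-Sen; points are estimates from 2 libraries a group and bars are 95% confidence intervals from limma. PMD-Sen stands apart at SMAD3 (-2.24) and TGFBR2 (-1.18), DDR-Sen at INHBA (1.92) and Ca2+-Sen at SKIL (1.76), while the 3 TGFBR1 points coincide.

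On day 1, PMD-Sen differed from DDR-Sen in 3 genes, of which SKIL was higher and TGFB2 and SMAD3 were lower, beside 35.6% of all genes. It differed from Ca2+-Sen in 2 genes, TGFB2 and TGFBR2, both lower, beside 20%. Ca2+-Sen and DDR-Sen differed in TGFBR2, which was higher in Ca2+-Sen, and in SMAD3, which was lower there, beside 25.4%. TGFB2 in PMD-Sen had log2 differences of -1.74 from DDR-Sen and -1.66 from Ca2+-Sen (limma, adjusted p = 3.79e-05 and 0.000239). The SKIL call was lost without 3 of the 4 libraries, with limma's adjusted p at up to 0.533.

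On day 16, limma called 0 of the 10 genes between PMD-Sen and DDR-Sen, beside 5.22% of all genes. INHBA and TGFB2 had an unadjusted p under 0.05, and both were lower in PMD-Sen (log2 -0.66 and -0.97, adjusted p = 0.11 and 0.0593 by limma); TGFB2 passed when only genes with a mean of at least 100 were tested and when libraries were scaled by their totals. PMD-Sen differed from Ca2+-Sen in SMAD3 and TGFBI, which were 0.51 and 0.87 higher in PMD-Sen, beside 23.2% of all genes. Ca2+-Sen was lower than DDR-Sen in TGFBR2, SMAD3 and TGFBI, by log2 differences of -0.24, -0.32 and -0.75, beside 27.7%, and each of these 3 calls was lost without 1 or another of the 4 libraries (limma, adjusted p up to 0.103, 0.16 and 0.0715). TGFB2 ran in the order PMD-Sen, Ca2+-Sen, DDR-Sen, with means of 1554, 1755 and 3066 normalised reads, and RS stood at 3993. The first 2 differed by less than the spread, with a 95% interval of -0.81 to 0.44, and Ca2+-Sen missed the threshold against DDR-Sen (limma, adjusted p = 0.0549).

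From day 0 to day 16, 8 genes were called in PMD-Sen, 7 in Ca2+-Sen and 7 in DDR-Sen, beside 60.2%, 58.6% and 41.5% of all tested genes. SKIL and TGFBI were lower on day 16 and TGFBR2 was higher in all 3 treatments. The log2 differences of SKIL were -1.36, -2.23 and -1.17 in PMD-Sen, Ca2+-Sen and DDR-Sen, and those of TGFBI were -0.91, -1.02 and -0.88. TGFBR2 was higher by 1.58, 0.39 and 0.43. SMAD3 in PMD-Sen had the greatest change of the 30, from 2305 and 2322 normalised reads to 13670 and 15230 (log2 2.64 ± 0.10, limma adjusted p = 7.59e-19). TGFB1 went opposite ways: it was 0.55 higher on day 16 in PMD-Sen, where day 0 was low, and lower in Ca2+-Sen and DDR-Sen, by log2 differences of -0.49 and -0.74. All of these calls held without each of the 4 libraries compared. For TGFBI in PMD-Sen and DDR-Sen and for TGFBR2 in DDR-Sen, however, the digits gave only the mean of the pair on both days. Leaving out a library there lowered the weight of a mean and could not move the difference. The same applies to TGFBR2 in PMD-Sen on day 16.

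SKIL, TGFB2 and TGFB3, which were among the 5 members called higher than untreated cells in Ca2+-Sen on day 0, each have a start site with the letters TGACGT nearby, a part of the CREB and ATF motif TGACGTCA. The search was made after those values were seen and covered both strands, so that ACGTCA counts as a match. These calls were not particular to Ca2+-Sen. SKIL was also called higher on day 0 in PMD-Sen and DDR-Sen. TGFB2 and TGFB3 were also called higher in RS and in DDR-Sen on days 8 and 16. The windows of 300 bases run from 250 before to 50 after a RefSeq start (GRCh38.p14), are printed 5' to 3' on the strand of the gene, and carry the matches in capitals.
SKIL, chr3:170357465-170357764, plus strand: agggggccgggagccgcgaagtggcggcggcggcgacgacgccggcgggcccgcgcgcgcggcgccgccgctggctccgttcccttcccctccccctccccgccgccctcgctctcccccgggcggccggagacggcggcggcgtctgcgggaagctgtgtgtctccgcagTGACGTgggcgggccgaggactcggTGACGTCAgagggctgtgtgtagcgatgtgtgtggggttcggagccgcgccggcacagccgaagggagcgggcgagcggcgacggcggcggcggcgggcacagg
TGFB2, chr1:218345086-218345385, plus strand: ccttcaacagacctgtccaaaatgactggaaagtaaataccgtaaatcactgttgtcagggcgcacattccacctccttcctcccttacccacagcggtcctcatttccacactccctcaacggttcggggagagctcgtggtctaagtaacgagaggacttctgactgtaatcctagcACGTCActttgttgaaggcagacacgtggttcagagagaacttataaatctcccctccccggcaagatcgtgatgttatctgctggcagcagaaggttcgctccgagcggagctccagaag
TGFB3, chr14:75981946-75982245, minus strand: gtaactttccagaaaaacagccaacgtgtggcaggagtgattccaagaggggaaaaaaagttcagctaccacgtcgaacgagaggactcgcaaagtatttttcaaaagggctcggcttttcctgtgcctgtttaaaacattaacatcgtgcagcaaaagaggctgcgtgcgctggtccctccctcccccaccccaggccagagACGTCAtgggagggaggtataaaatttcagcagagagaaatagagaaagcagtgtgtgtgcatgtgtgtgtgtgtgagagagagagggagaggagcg
The matches lie 73 and 48 bases before the start of SKIL, 65 before that of TGFB2 and 41 before that of TGFB3. The TGFB3 window belongs to the second of the gene's 2 RefSeq starts, inside the gene as GENCODE 29 draws it, and the window at the 5' end of the gene holds no match. The TGFB2 window lies wholly before TGFB2 as GENCODE 29 draws it, which begins at chr1:218346235. RefSeq lists 25 windows for the 10 genes, and 3 of them hold TGACGT in either direction, as do 7.98% of all 35116 windows. Counted by gene, 3 of the 10 members have a match, as do 9.64% of the 27305 genes with a window. No window of TGFBR1 or SMAD7, the remaining members called higher in Ca2+-Sen on day 0, holds a match. The whole motif TGACGTCA stands in 1 of the 25, at SKIL, and in 1.85% of all windows. The AP-1 motif TGAGTCA, with its reverse TGACTCA, stands in a window of TGFBR2 and of SMAD3 and in 4.95% of all, and the SMAD3 and SMAD4 motif GTCTAGAC in none of the 25 and in 0.202% of all. A match says only that these letters are there.

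The genes whose group means followed TGFB2 most closely over the 26 groups, among 11039 other genes with a mean of at least 100, were PRRG1, ADAMTS5, AC073283.2, AK4 and NNMT, with Spearman correlations of 0.94, 0.93, 0.91, 0.91 and 0.91. Among the 10 genes, TGFB2 ran closest to TGFB3 (0.75). These are descriptions over groups that share their scaling, with no test.

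The wider pathway was followed in 5 lists. The background for their counts on day 0 is the 55.6%, 59.2% and 40.3% of all tested genes called in PMD-Sen, Ca2+-Sen and DDR-Sen, and the list shares were not tested against it. Counts of calls per gene below run over the 25 comparisons with untreated cells, which share the same 2 untreated libraries. In these, the share of all tested genes called ran from 5.24% in Ca2+-Sen on day 2 to 59.2% in Ca2+-Sen on day 0. The counts per gene were not tested against that share. Genes that hold or activate latent TGF-beta (13 of 14 tested) were called lower in 8 and higher in 0 cases in PMD-Sen on day 0, lower in 6 and higher in 2 in Ca2+-Sen, and higher in 5 and lower in 0 in DDR-Sen, which makes 8, 8 and 5 of 13. Their median log2 differences were -0.21, -0.18 and 0.21, beside -0.02, -0.04 and -0.01 over all tested genes. ITGB8, an integrin subunit that activates latent TGF-beta, was at 268 and 278 normalised reads in untreated cells, at 42.1 and 40.9 in PMD-Sen on day 0 and at 1308 and 1573 in Ca2+-Sen (log2 -2.69 and 2.39). LRRC32, which displays latent TGF-beta on the cell surface, was at 150 and 118 in untreated cells, 27.2 and 34.1 in PMD-Sen on day 0 and 278 and 583 in RS. LTBP4, a latent TGF-beta binding protein, ranged from a log2 difference of -1.18 in PMD-Sen on day 2 to 1.45 in Ca2+-Sen on day 8.

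Of 8 other receptors and coreceptors, 3 were called higher and 4 lower in PMD-Sen on day 0, 5 higher and 1 lower in Ca2+-Sen, and 1 higher and 1 lower in DDR-Sen, which makes 7, 6 and 2 of 8 beside the same background. ACVRL1, a type I receptor best known from endothelial cells, had log2 differences of -2.08 in PMD-Sen and 1.40 in Ca2+-Sen on day 0, and TGFBR3, the coreceptor that presents TGFB2, had -1.12 and 0.96. ACVR2B, an activin receptor, ranged from -0.65 in PMD-Sen on day 2 to 0.78 in Ca2+-Sen on day 0. The list's medians on day 0 were 0.01, 0.51 and 0.00 in PMD-Sen, Ca2+-Sen and DDR-Sen.

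Of 5 other activin subunits and antagonists, 3 were called higher and 0 lower in PMD-Sen on day 0, 1 and 1 in Ca2+-Sen, and 1 and 0 in DDR-Sen, with list medians of 0.94, 0.27 and 0.03. INHBE, a subunit best known from liver, had 10 and 0 reads in the untreated libraries and 1122 and 1160 normalised reads in PMD-Sen on day 0. In Ca2+-Sen it was at 367 and 446, and in DDR-Sen at 2.32 and 1.98. It was called higher in the first 2 groups and in no other, but the size of the difference rests on few untreated reads. INHBB, likewise near the detection limit, was highest in RS at 30.0 and 164 normalised reads. FST, which binds and neutralises activin, was called lower in 17 of the 25 comparisons with untreated cells and higher in 1, DDR-Sen on day 0 being its highest group (log2 0.69) and Ca2+-Sen on day 8 its lowest (-2.06). The share of all tested genes called in those comparisons ran from 5.24% to 59.2%.

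Of 13 other intracellular transducers and inhibitors, 5 were called higher and 4 lower in PMD-Sen on day 0, 7 and 1 in Ca2+-Sen, and 4 and 5 in DDR-Sen, which makes 9, 8 and 9 of 13 beside 55.6%, 59.2% and 40.3% of all genes. The list's medians were 0.17, 0.21 and -0.14. PMEPA1, a feedback inhibitor that binds SMAD proteins, was called higher in 11 of 25 comparisons and lower in 1, and was at 665 and 717 normalised reads in PMD-Sen on day 1, against 222 and 310 in untreated cells. BAMBI, a decoy receptor, was at 1666 and 1859 in Ca2+-Sen on day 0, against 570 and 626. TGIF1, a repressor of SMAD target genes, was highest in PMD-Sen on day 0 (log2 1.46) and was called lower in 8 comparisons and higher in 3. Both counts stand beside the 5.24% to 59.2% of all tested genes called in a comparison with untreated cells.

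Target genes of the pathway in fibroblasts (19 of 19 tested) were called higher in 6 and lower in 4 cases in PMD-Sen on day 0, in 6 and 8 in Ca2+-Sen, and in 6 and 2 in DDR-Sen, which makes 10, 14 and 8 of 19 beside 55.6%, 59.2% and 40.3% of all genes. On day 16 the counts were 1 higher and 5 lower, 2 and 4, and 5 and 7, beside 43.8%, 16.3% and 46.9% of all genes, and in RS they were 9 and 1 beside 47.3%. The list's medians on day 0 were 0.28, -0.61 and 0.16, beside -0.02, -0.04 and -0.01 over all genes, and in RS 0.51 beside 0.00. COL3A1, a fibrillar collagen, had a log2 difference of -3.01 in PMD-Sen on day 0. ELN, which encodes elastin, was called lower in 15 comparisons and higher in 0, and fell furthest in Ca2+-Sen on day 4 (-3.99). Of all tested genes, 5.24% to 59.2% were called in a comparison with untreated cells. COMP, a matrix protein that cartilage and fibroblasts make, was called higher in 21 comparisons; it had 10 and 1 reads in the untreated libraries, 197 and 386 normalised reads in PMD-Sen on day 0 and 192 and 106 in RS, and its differences rest on those few untreated reads.

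**Figure D4:**
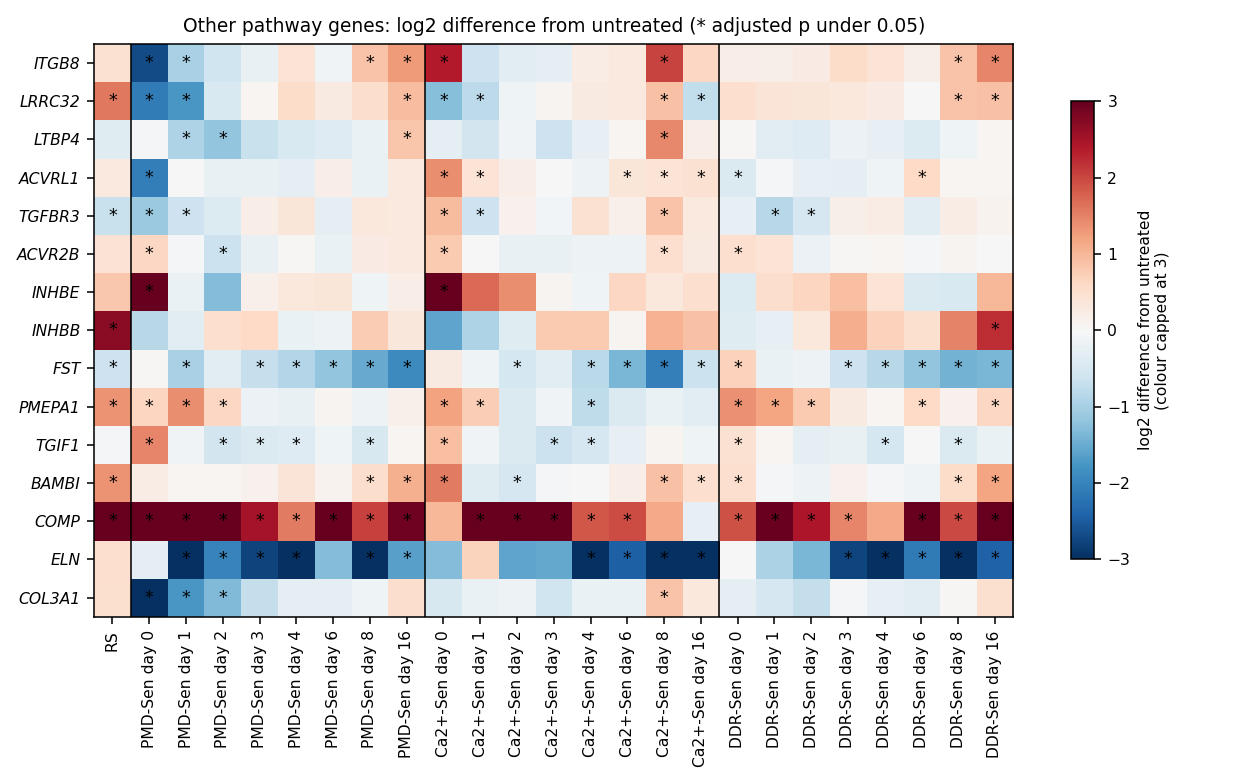
Log2 difference from untreated cells of the 3 genes of each pathway list with the widest range of group means, in RS and on each day of the 3 treatments, with red above and blue below untreated and a star where limma's adjusted p was under 0.05. ITGB8, ACVRL1 and TGFBR3 are blue in PMD-Sen and red in Ca2+-Sen on day 0, and FST and ELN are blue on most later days.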

How the data were processed

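The mRNA of 52 libraries (2 in each of 26 groups) had been sequenced as paired reads. The submitters' processing notes name Trim Galore, HISAT2, HTSeq, featureCounts and DESeq2 and the build GRCh38/hg38, with no version or role. The deposited signal used here is the mean of normalised counts per gene over the 4 libraries of a comparison. The authors' remaining columns, which hold their own comparisons (fold changes, errors, test statistics and p-values), were not used. The 2 files of each group hold 1 table, and RS and untreated cells share theirs, leaving 25 distinct tables.

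Every normalised count is a whole number of reads times a fixed step per library, and the steps and reads were solved from the means (Python 3.11.15, numpy 2.4.6, sympy 1.14.0). All 39967 genes solved for the shared untreated libraries in more than 1 set of tables had the same reads in each set. Reads of both libraries were resolved for 98.6% to 100% of genes above 0, and for 89.6% in DDR-Sen on day 1. Tables given with 15 digits and rounded to 10 gave no wrong pair among 28761 and 31513 resolved genes. An unresolved pair entered as its mean with the weight of 2 libraries, or of 1 where 1 of them was left out. One row that names no gene was left out.

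The reads were scaled by median-ratio size factors, filtered at a mean of 10, and fitted as log2(normalised reads + 1) with limma 3.58.1 (R 4.3.3), trend on, all 26 groups in 1 fit. Differences on this scale understate changes of low genes. Tests were two-sided, Benjamini-Hochberg adjusted over 15606 genes per comparison and called under 0.05. Count models were not run. The fit was tested on simulated data, where false calls exceeded the nominal rate at low counts; voom values therefore stand beside the TGFB3 calls. Levels per kilobase use merged exons of GENCODE 29. Alternatives were other pseudocounts, filters and scaling, voom, separate fits, a minimum difference and leaving out each library.

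The members and lists were chosen with earlier results of these data known. From each list the text names the 3 genes with the largest range of group means among those called at least once, and for TGFB2 the 5 most similar genes; other names were chosen after their values were seen.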

Additional observations from a re-analysis of the deposited data

Results flagged for a closer look

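Genes called between day 16 and day 0 within a treatment are listed here because their levels differed between 2 times, tested without the untreated libraries by limma. Time in culture and treatment cannot be told apart in these comparisons. In PMD-Sen 8 genes passed. TGFB1 was 0.55 higher on day 16 on the log2 scale, TGFB3 1.74 higher, TGFBR2 1.58 higher and SMAD3 2.64 higher, while the differences were -0.69 for INHBA, -0.55 for TGFBR1, -1.36 for SKIL and -0.91 for TGFBI. In Ca2+-Sen TGFBR2 was 0.39 higher and SMAD3 0.35 higher, and the differences were -0.49 for TGFB1, -0.72 for TGFB2, -1.47 for SMAD7, -2.23 for SKIL and -1.02 for TGFBI. In DDR-Sen TGFB2 was 1.48 higher and TGFBR2 0.43 higher, and the differences were -0.74 for TGFB1, -1.74 for INHBA, -0.97 for SMAD7, -1.17 for SKIL and -0.88 for TGFBI. For TGFBI in PMD-Sen and DDR-Sen and TGFBR2 in DDR-Sen, only the means of the pairs were known, so leaving out a library could not move the difference. Of these 22 calls, 18 held without each of the 4 libraries. INHBA and TGFBR1 in PMD-Sen, TGFB2 in Ca2+-Sen and SMAD7 in DDR-Sen did not, with limma's adjusted p at up to 0.0775, 0.0539, 0.132 and 0.0659.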

How the results depend on the processing

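The counts of called genes were 30 of 80 in PMD-Sen, 32 of 80 in Ca2+-Sen, 28 of 80 in DDR-Sen and 6 of 10 in RS against untreated cells, 9, 13 and 12 of 30 for PMD-Sen against DDR-Sen, PMD-Sen against Ca2+-Sen and Ca2+-Sen against DDR-Sen, and 22 of 30 for day 16 against day 0. They stayed within 1.5 times under other pseudocounts, filters, library totals and voom. A separate fit for each pair of groups called 1 in RS and 19 between Ca2+-Sen and DDR-Sen. Requiring a log2 difference of at least 1 left 5, 8, 5 and 3 against untreated cells, 6 and 3 for PMD-Sen and DDR-Sen against Ca2+-Sen, and 10 for day 16 against day 0; 6 remained between PMD-Sen and DDR-Sen. Leaving out 1 library gave 25 to 30, 20 to 34, 18 to 28 and 3 to 6 against untreated cells, 7 to 9, 11 to 14 and 9 to 13 between treatments, and 20 to 22 between days. The lowest counts in Ca2+-Sen (20) and DDR-Sen (18) came without untreated library 2, and that in RS (3) without untreated library 1. One result turned its sign and passed, TGFBI in RS without RS library 2 (0.50, and -0.61 without RS library 1). Under those pseudocounts, filters, library totals and voom, calls over all genes moved by over 1.5 times in Ca2+-Sen on day 2, from 818 to 486 with voom and 503 with no filter, and in none of the other 36 comparisons; leaving out 1 library moved them that far in 48 of 148 cases, down to 161 in Ca2+-Sen on day 2 without its library 1 and, between PMD-Sen and DDR-Sen on day 16, from 815 to 151 and 1831 without PMD-Sen library 2 and library 1. The cause of these shifts was not tested. Library totals moved the median of all genes by at most 0.085 on the log2 scale, and the share of calls that were higher by over 10 percentage points in 6 comparisons. No paired analysis was possible because the recovered libraries carry no replicate number. The untreated libraries were the shallowest, and their 2 values set the precision of all comparisons with untreated cells; TGFB3, with 39 and 24 reads there, is limited most.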

Other observations

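Other genes of the pathway lists, named after their values were seen, were called mostly in 1 direction over many groups. LTBP1, the main latent TGF-beta binding protein of fibroblasts, was called lower in 12 of the 25 comparisons with untreated cells and higher in 0, and ITGAV, the integrin subunit that pairs with ITGB8, lower in 17 and higher in 1. LTBP3 was called higher in 15 and lower in 3. Among the transducers, SMAD4, the partner that SMAD2 and SMAD3 share, was called lower in 13 and higher in 2, whereas PPM1A, a phosphatase that acts on SMAD proteins, and ZFYVE9, which brings SMAD2 and SMAD3 to the receptor, were each called higher in 13 and lower in 0 and 1. CDKN2B, a cell cycle inhibitor induced by TGF-beta, was called higher in 18 and lower in 0, and was highest in Ca2+-Sen on day 0 (log2 2.49). INHA, the inhibin alpha subunit, was called higher in 14, with its highest level in DDR-Sen on day 1 (2.10), and SCX, a transcription factor of matrix-producing cells, was called higher in 10. POSTN and ACTA2, much used readouts of TGF-beta in fibroblasts, were called higher in 0 comparisons and lower in 10 and 5. Other targets of the same list were called in both directions. CCN2 was higher in 2 and lower in 1, JUNB higher in 8 and lower in 3, BHLHE40 higher in 5 and lower in 11, and NOX4 higher in 2 and lower in 7. All of these comparisons share the 2 untreated libraries. The share of all tested genes called in them ran from 5.24% in Ca2+-Sen on day 2 to 59.2% in Ca2+-Sen on day 0, and the counts were not tested against it.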
